A study of Mus musculus with 38 samples.

Results

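Trimethylation of lysine 4 of histone H3 (H3K4me3) was mapped by chromatin immunoprecipitation and sequencing (ChIP-seq) in IκBα-WT (WT) and IκBα-KO (KO) mouse embryonic stem cells (mESCs), and the comparison between the genotypes is described here. Its members were the 6 H3K4me3 peak lists, 3 WT and 3 KO, of the 38 samples in the series, and every peak on chromosomes 1 to 19 entered. All 6 libraries came from the ES-E14TG2a line, an established line of naïve pluripotent cells, kept in Serum/LIF medium and collected at 0 h, before any differentiation. KO clones were made by CRISPR-Cas9 with 2 guide RNAs against the first exon of Nfkbia, the gene that codes for IκBα. WT clones had received non-targeting scrambled guides. Each genotype was represented by 3 independent clones, so a replicate here is a clone, and a difference between the genotypes is a difference between 3 clones and 3 other clones of 1 line. Each genotype had 1 input library for H3K4me3, which served all of its 3 clones.

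H3K4me3 is laid down by the SET1/COMPASS and MLL complexes around transcription start sites (TSSs), and it marks the promoters of active genes as well as the bivalent promoters of developmental genes, which also carry the Polycomb mark H3K27me3. In mESCs the active promoters of cell identity genes often carry H3K4me3 that spreads beyond the start site into a broad domain. IκBα holds NF-κB dimers in the cytoplasm, and it has also been described on chromatin, where it was linked to Polycomb and stem cell programs. The question put to these data was whether the H3K4me3 landscape of naïve cells changed when IκBα was lost: how wide the peaks were, how strongly they stood out, where they lay and at which promoters they widened or narrowed.

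Peak lists gave the width of each peak and its fold enrichment, the ratio of ChIP reads to expected reads at the summit. They held no read counts, but the fold enrichment and the p-value of a peak together give the number of reads stacked at the summit (summit reads) and the number expected there from the input (local background). Local background had a floor, the genome-wide background of each library, at 1.35 to 1.52 reads. A solution of whole reads, within 0.02 of a read, was found for 100% of peaks in every library. Between 0 and 6.88% of the peaks of a library had more than 1 such solution, and the one nearest to a whole number was then taken. The solutions had medians of 23 to 28 summit reads and of 2.23 to 2.59 reads of local background per library. The recovered depth was 13.9 to 15.0 M ChIP reads per library. Promoters of all 10 mESC marker genes carried H3K4me3 in at least 1 library, with 9, 9 and 9 called in WT and 10, 9 and 9 in KO. Those of 3 of 10 fibroblast, 7 of 8 primitive endoderm-like, 4 of 7 trophoblast-like and 1 of 6 blood marker genes also did in at least 1 library, the last in KO2 alone. On 3 stretches, summit reads at most promoter regions differed in the same direction between the genotypes, so counts are also given without them. These were chromosome 2 from 165 to 171 Mb, chromosome 8 from 40 to 129 Mb and chromosome 12 from 103 to 119 Mb.

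The Nfkbia promoter itself was checked first. A single joined region covered it, chr12:55491061-55493277 on GRCm38, from upstream of the start site through exons 1, 2 and 3 of transcript Nfkbia-201. The 2 guides used by the study matched 1 site each, both in exon 1 and inside this region, and are shown with the protospacer in lower case and the adjacent NGG motif in capitals. The first lay on the minus strand at chr12:55492432-55492451 and cut 212 bases downstream of the gene start. The second lay on the plus strand at chr12:55492460-55492479 and cut 170 bases downstream.
Nfkbia gRNA 1: gtggacgatcgccacgacagCGG
Nfkbia gRNA 2: ccttcttgaggccatcccgcGGG
The 250 bases upstream of the start (RefSeq, GRCm38.p6, chr12:55492648-55492897, minus strand) are given with CG dinucleotides in capitals.
Nfkbia promoter: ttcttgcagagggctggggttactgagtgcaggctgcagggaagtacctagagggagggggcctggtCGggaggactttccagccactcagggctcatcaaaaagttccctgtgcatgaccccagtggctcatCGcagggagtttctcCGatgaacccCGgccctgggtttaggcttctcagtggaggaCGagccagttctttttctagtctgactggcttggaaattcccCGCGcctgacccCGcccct

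Summit reads over Nfkbia were 47, 41 and 50 in the 3 WT libraries and 12, 16 and 19 in the 3 KO libraries. The groups did not overlap, and the difference was −1.69 ± 0.18 (log2 of KO over WT, SE) with an adjusted p of 7.24e-10 (limma, Benjamini-Hochberg). Local background hardly differed there, with a log2 difference of −0.07. Fold enrichment fell by 1.50 on the log2 scale (adjusted p = 3.01e-04, limma). The main WT summits lay 212 to 245 bases downstream of the start, next to the guides' cut sites. KO1 kept a single call of 235 bp with its summit 1276 bases downstream. KO2 had 3 calls, with summits 1487 and 562 bases downstream and 195 bases upstream of the start, and KO3 had 3, with summits at 1069 and 259 bases downstream and 355 upstream. The calls covered 1226, 1168 and 1523 bp in WT and 235, 820 and 1056 bp in KO, a difference that did not pass the test (−1.14 ± 0.48, adjusted p = 0.185, limma). The extent of the edit in each clone was not measured here, so loss of H3K4me3 and loss of sequence cannot be told apart at this site.

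Across the genome, KO libraries held more peaks and placed a larger share of them away from promoters. Peaks numbered 22439, 21283 and 23033 in WT and 23137, 25696 and 26109 in KO. The KO mean was 12.3% higher and the groups did not overlap (exact permutation test over libraries, two-sided, p = 0.1, the smallest p that 3 against 3 libraries can give, as for every p of 0.1 below). Without the 3 stretches the difference was 11.9%, and among peaks with at least 5-fold enrichment it was 3.53% (p = 0.4, exact permutation test). Promoter peaks, defined by overlap with a window that opens 5000 bp before a TSS and closes 100 bp after it, made up 81.7% ± 1.44 (SD, n = 3) of WT peaks and 76.5% ± 2.15 of KO peaks (exact permutation p = 0.1). This difference of −5.23 percentage points became −2.12 among peaks with at least 5-fold enrichment and −2.03 with equal numbers of top peaks per library (exact permutation p = 0.1 for both).

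Peaks inside gene bodies and between genes made up the rest. Gene body peaks numbered 3030, 2677 and 3243 in WT and 3581, 4476 and 4686 in KO, 42.4% more on average (exact permutation p = 0.1). With at least 5-fold enrichment they numbered 1463, 1387 and 1778 in WT and 1695, 1799 and 1827 in KO, which overlapped (exact permutation p = 0.2). Their share of all peaks was 13.4% in WT and 16.9% in KO, and this difference of 3.56 percentage points became 1.03 at that enrichment and 1.09 with equal numbers of top peaks. Intergenic peaks numbered 1087, 907 and 1297 in WT and 1294, 1814 and 1850 in KO, 50.7% more, with KO1 just under WT3 (exact permutation p = 0.2). Promoter peaks differed by 5.00% (exact permutation p = 0.3), and KO1, with 18262, lay below WT1 and WT3. The median distance from summit to the nearest TSS was 250, 245 and 259 bp in WT and 275, 310 and 322 bp in KO (exact permutation p = 0.1). The difference of 51.0 bp became 8.67 bp with at least 5-fold enrichment and 10.7 bp with equal numbers of top peaks. Among promoter peaks alone the mean of these medians was 197 bp in WT and 204 bp in KO (exact permutation p = 0.1).

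**Figure D1:**
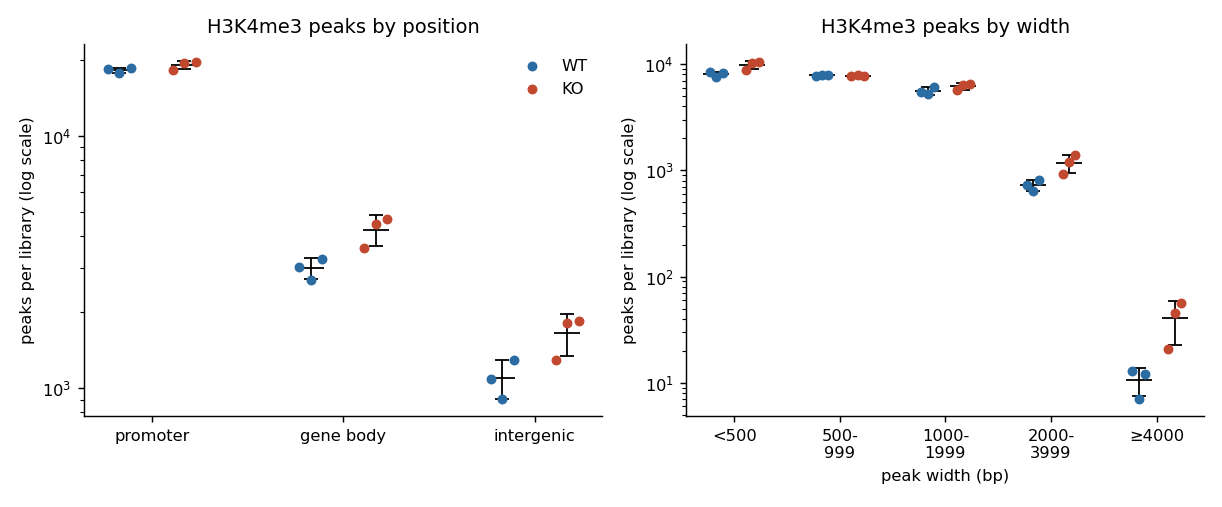
Number of H3K4me3 peaks per library (log scale) by position, on the left, and by peak width in bp, on the right, with 1 point per library for 3 WT (blue) and 3 KO (red) libraries and black bars for mean ± SD. Gene body peaks lie between 2677 and 3243 in WT and between 3581 and 4686 in KO, while promoter peaks overlap between the genotypes.

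Width moved at both ends of its range. The median width was 660, 668 and 683 bp in WT and 648, 636 and 637 bp in KO, a difference of −30.0 bp (exact permutation p = 0.1). Peaks shorter than 500 bp were 21.8% more frequent in KO and peaks of 500 to under 1000 bp differed by −0.807%. At the other end, peaks of 2000 to under 4000 bp numbered 724, 634 and 819 in WT and 922, 1198 and 1380 in KO (60.8% more, exact permutation p = 0.1). Peaks of 4000 bp and longer numbered 13, 7 and 12 in WT and 21, 45 and 57 in KO, again without overlap. The direction of the median depended on which peaks entered. Among peaks with at least 5-fold enrichment the KO median was 45.3 bp higher (exact permutation p = 0.3), and among equal numbers of top peaks per library it was 54.0 bp higher (p = 0.2, exact permutation test). Of promoter peaks, 3.99% ± 0.432 reached 2000 bp in WT and 6.17% ± 1.08 in KO (exact permutation p = 0.1), and without the stretches 4.01% and 6.01%.

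The longest single peak of each library was 5718, 5109 and 4986 bp for WT against 6181, 6990 and 7518 bp for KO. A peak of at least 4000 bp was called in 82 regions in at least 1 library, of which 19 had it in at least 1 WT and 77 in at least 1 KO library. In 4 regions all 6 libraries had such a peak: Trim71, an RNA-binding regulator of developmental timing, Mycn, a proliferation factor, Spry2, an inhibitor of FGF signalling, and Msh4/Rabggtb. In 6 regions the 3 KO libraries had it and no WT library did, at Zc3h4, Rps19 and Rack1 and, inside the stretches, Sall4, Ier2 and N4bp1. Sall4 codes for a pluripotency transcription factor, and Rps19 and Rack1 for components of the small ribosomal subunit. The reverse pattern was found in 0 regions.

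To compare single promoters, calls of the 6 libraries were joined over gaps of up to 500 bp. This gave 23757 regions, of which 13217 were called in all 6 libraries. Of those, 11309 lay within 1000 bp of the TSS of a protein-coding transcript, at 12023 genes. Width in a region was the number of bp that a library's calls covered, tested with limma on the log2 scale over all 13217 regions. Of the regions tested, 7.64% passed an adjusted p of 0.05, 6.54% as wider and 1.10% as narrower in KO. Fitted without the 3 stretches, 6.55% passed, 5.64% as wider and 0.908% as narrower. Among promoter regions 712 were wider and 109 narrower, or 6.30% and 0.964% of 11309, of which 91 and 18 lay in the 3 stretches, so that 621 and 91 lay outside them. With each library centred on its median width the split became 462 wider (4.09%) and 254 narrower (2.25%), as the median promoter region was 0.10 wider in KO on the log2 scale. The total of 821 was 389, 413, 287 and 316 when WT1, WT2, KO2 or KO3 was left out, with more wider than narrower in each case. The wider promoters went from a median of 1447 bp in WT to 2255 bp in KO, and the narrower ones from 1528 to 798 bp. Summit reads differed less, as the median log2 difference in summit reads was 0.07 over the wider and −0.24 over the narrower promoters, against −0.02 over all promoter regions. Over the 11309 promoter regions, the width and summit read differences had a Pearson's r of 0.365, and both come from the same 6 libraries.

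**Figure D2:**
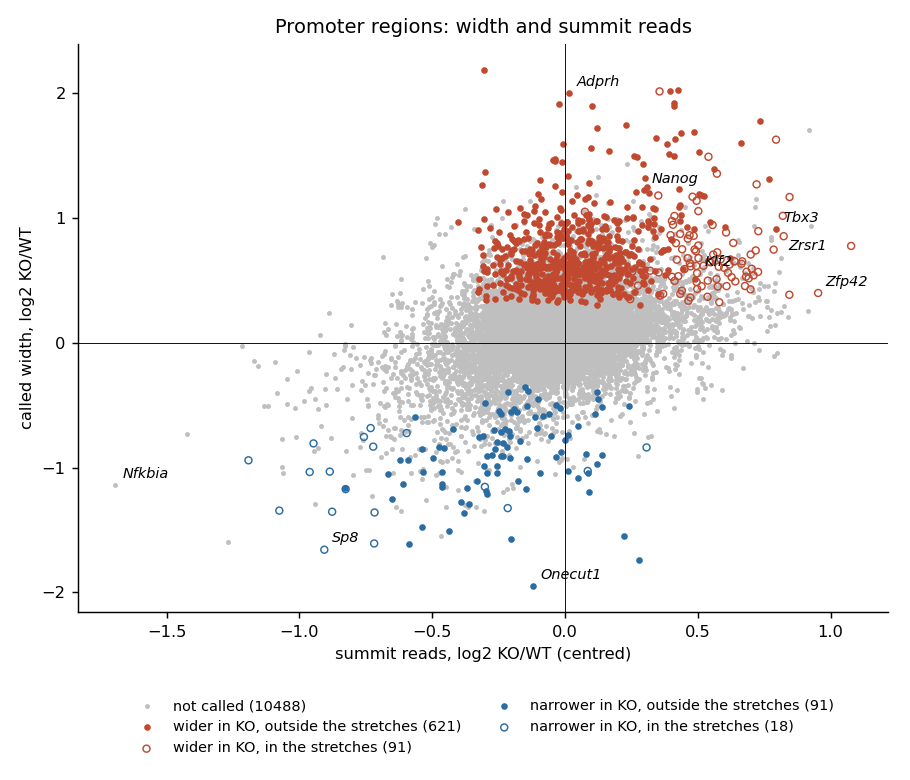
Log2 difference (KO over WT) in called width against that in summit reads for the 11309 promoter regions called in all 6 H3K4me3 libraries, with wider promoters in red, narrower in blue, those inside the 3 stretches as open circles and regions that did not pass in grey. The 712 wider promoters have a median log2 difference of 0.07 in summit reads, and Nfkbia has the lowest log2 difference in summit reads of all.

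Promoters of the pluripotency network were among those that widened. Of 25 regions at naïve pluripotency regulators, 10 were wider and 0 narrower, 3 of the 10 in the stretches, with a median log2 difference of 0.35. Over all promoter regions 6.30% were wider and the median was 0.10. With centred libraries 5 were wider and 0 narrower, and without the mean-variance trend 3 were wider and 0 narrower. Over all 11309 promoter regions 462 were wider with centring and 331 without the trend. Of 8 regions at core pluripotency factors, 4 were wider and 0 narrower, and 3 with centring. The 4 were Nanog, Lin28a, Utf1 and Tdgf1, while Pou5f1 (0.20, adjusted p = 0.202, limma) and Sox2 (−0.02, adjusted p = 0.93) did not pass. Both already had domains of 3943 to 5836 bp in WT. Where local background differed by at most 0.25 on the log2 scale, 9 naïve regulator regions remained, 2 wider and 0 narrower. Of all 3672 promoter regions that remained, 201 were wider. None of the core factor regions remained, so their widening was not tested at a like local background.

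Nanog, the homeodomain factor that stabilises self-renewal, had 1457, 1847 and 1496 bp of H3K4me3 in WT and 3158, 4211 and 3833 bp in KO. Every KO library was above every WT library, and the log2 difference was 1.22 ± 0.13 (adjusted p = 0.0038, limma). Its summit reads were 35, 28 and 28 in WT and 39, 44 and 38 in KO, which did not overlap but did not pass either (0.30 ± 0.16, adjusted p = 0.373). Fold enrichment at Nanog was 0.83 higher (adjusted p = 0.0214, limma), more than its summit reads, and that call held in 2 of 6 fits that left out a library. The promoter, given for its low CpG content (RefSeq, GRCm38.p6, chr6:122707239-122707488, plus strand), holds 3 CG dinucleotides in 250 bases, in capitals.
Nanog promoter: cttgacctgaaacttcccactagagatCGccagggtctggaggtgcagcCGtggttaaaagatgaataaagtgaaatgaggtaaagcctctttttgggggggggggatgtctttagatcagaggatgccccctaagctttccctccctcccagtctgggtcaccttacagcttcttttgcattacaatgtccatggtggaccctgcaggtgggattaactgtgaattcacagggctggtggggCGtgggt

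Esrrb, an orphan nuclear receptor of the naïve network, went from 2453, 2396 and 2857 bp in WT to 4523, 5548 and 5281 bp in KO at the promoter chr12:86469709-86476225 (0.99 ± 0.11, adjusted p = 0.0038, limma). Another Esrrb start, chr12:86421470-86423022, did not follow, at −0.14 ± 0.16 (adjusted p = 0.646). At the wider Esrrb promoter fold enrichment was 0.63 higher (adjusted p = 0.0301, limma), a call that held in 2 of 6 fits that left out a library. As at Nanog, this was more than its summit reads (0.34, adjusted p = 0.250, limma). Tbx3, a T-box factor that sustains naïve self-renewal, covered 2320, 2533 and 1894 bp in WT and 3977, 4045 and 4559 bp in KO (0.91 ± 0.12, adjusted p = 0.00598). Tbx3 was also higher at the summit, with 18, 20 and 21 reads in WT and 32, 36 and 44 in KO (0.80 ± 0.18, adjusted p = 0.00185). Local background at Tbx3 was 1.43 higher in KO on the log2 scale, and its fold enrichment differed by 0.17 (adjusted p = 0.597). Gbx2, a homeobox gene of the same state, covered 3881, 2420 and 3621 bp in WT and 4477, 4741 and 5449 bp in KO, which did not pass (0.59 ± 0.17, adjusted p = 0.0709).

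Klf2 and Zfp42, 2 further naïve markers, lie in the chromosome 8 stretch. Klf2 covered 2423, 2597 and 2834 bp in WT and 3940, 3773 and 3807 bp in KO (0.56 ± 0.08, adjusted p = 0.00842, limma). Zfp42 (Rex1) covered 4880, 4721 and 4243 bp in WT and 5589, 6411 and 6224 bp in KO (0.40 ± 0.09, adjusted p = 0.0342). Zfp42 had 28, 36 and 40 summit reads in WT and 80, 66 and 71 in KO (0.95 ± 0.13, adjusted p = 8.92e-07), above the median of 0.48 for the promoters of that stretch. Klf2 was 0.50 higher in summit reads (adjusted p = 0.00441, limma), close to that median. Width differences of the promoters there had a median of 0.26 and an upper quartile of 0.46. The width difference of Zfp42 lay between these 2 values and that of Klf2 above both. The width calls at Nanog, Esrrb, Tbx3, Klf2, Lin28a and Tdgf1 held with each library left out in turn. Fold enrichment at Lin28a and Tdgf1 went the other way, falling by 0.92 and 0.69 on the log2 scale (adjusted p = 0.00833 and 0.0195, limma), with local background 1.23 and 0.96 higher in KO. The width calls at Zfp42 and Utf1 did not hold with each library left out in turn, with adjusted p up to 0.119 and 0.121 (limma). Where calls were joined only by overlap, which splits a domain at each gap, the calls at Esrrb, Klf2 and Lin28a did not pass (adjusted p = 0.128, 0.403 and 0.484), while those at Nanog, Tbx3 and Tdgf1 did.

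Genes of the H3K4 and DNA methylation machinery were counted next, against 6.30% wider and 0.964% narrower over all promoter regions. Of 24 regions at H3K4 methyltransferases, their partners and demethylases, 7 were wider and 0 narrower (6 and 0 with centring), and 0 passed in summit reads. Without the mean-variance trend 5 of the 24 were wider. Over all 11309 promoter regions 462 were wider with centring and 331 without the trend. Kmt2b, the MLL2 methyltransferase that acts on bivalent promoters, went from 2320, 1849 and 2284 to 4039, 4466 and 4091 bp (0.97 ± 0.11, adjusted p = 0.0038, limma). Kdm2b, which binds CpG islands and recruits Polycomb, went from 2780, 2803 and 2893 to 4767, 5943 and 5398 bp (0.92 ± 0.09, adjusted p = 0.00327). The COMPASS core subunits Ash2l (1.23 ± 0.18, adjusted p = 0.0084) and Wdr5 (0.81 ± 0.10, adjusted p = 0.00469) were wider as well. All 4 calls held with each library left out, but that at Kdm2b was lost with peaks of at least 5-fold enrichment (adjusted p = 0.310) and that at Wdr5 by the outermost ends of its calls (adjusted p = 0.0832). Of 12 regions at DNA methylation genes 4 were wider and 0 narrower, at Dnmt3a, Dnmt3l and both tested Tet1 starts, and 1 was without the mean-variance trend. Tet1, a 5-methylcytosine dioxygenase, went from 1443, 1204 and 1571 to 2091, 2330 and 2770 bp (0.77 ± 0.14, adjusted p = 0.0153), a call lost without KO2 or KO3 (adjusted p = 0.0541 and 0.0543). Dnmt3l, which activates de novo methylation, went from 1952, 1250 and 2146 to 3404, 3271 and 3427 bp (0.96 ± 0.18, adjusted p = 0.018), also lost without KO2 or KO3 (adjusted p = 0.0603 and 0.0667). Of 15 Polycomb regions, 0 passed in width.

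Ribosomal protein and housekeeping promoters give a view of highly active genes. Of 27 ribosomal regions 7 were wider and 0 narrower, with a median of 0.30 against 0.10 over all promoter regions. With centring 4 were wider, and 1 without the mean-variance trend. Over all 11309 promoter regions 712 were wider (6.30%), 462 with centring and 331 without the trend. Rps3, with 3075, 2890 and 3039 bp in WT and 4113, 4293 and 5293 bp in KO, was among them (0.60 ± 0.10, adjusted p = 0.0136, limma). Of 10 housekeeping regions 0 passed, though Gapdh covered 3734, 3238 and 3502 bp in WT and 4188, 4282 and 4578 bp in KO, without overlap (0.32 ± 0.08, adjusted p = 0.0556).

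The promoters with the widest gains belonged to varied genes. At Adprh, which codes for an ADP-ribosylarginine hydrolase, 1675, 1447 and 1555 bp in WT became 5403, 6919 and 6398 bp in KO (2.00 ± 0.11, adjusted p = 1.96e-04, limma). Its summit reads were 40, 44 and 51 in WT and 46, 47 and 55 in KO, overlapping (0.02 ± 0.13). Measured by the outermost ends of its calls in place of the bp covered, the Adprh change did not pass (adjusted p = 0.218). Hsd17b11, a hydroxysteroid dehydrogenase, went from 355, 449 and 447 to 1421, 1830 and 1825 bp (2.02 ± 0.18, adjusted p = 0.00256). Spp1, the secreted phosphoprotein osteopontin, went from 749, 278 and 510 to 1582, 1948 and 2271 bp (2.01 ± 0.33, adjusted p = 0.0106). Folr1, a folate receptor, Nubp1, an iron-sulphur cluster assembly factor, and Agrn, which codes for agrin, gained 1.92, 1.89 and 1.89 on the log2 scale. Katnal2, a katanin-like gene, had the largest gain of all promoters, from 436, 306 and 530 to 1554, 2441 and 1746 bp (2.18 ± 0.25, adjusted p = 0.00424). Zfp36, which codes for the mRNA decay factor tristetraprolin, and Tnfrsf1a, a TNF receptor, are both tied to NF-κB signalling and were wider by 1.91 and 1.74. The Tnfrsf1a call was lost without WT1, KO2 or KO3 (adjusted p = 0.0511, 0.0617 and 0.0571). Local background moved too at some of these promoters, with log2 differences of −0.86 at Adprh, −0.57 at Katnal2, −0.52 at Nubp1, −0.37 at Hsd17b11 and −0.24 at Spp1. It differed by −0.05 at both Agrn and Zfp36 and was higher in KO by 0.49 at Folr1 and 0.90 at Tnfrsf1a. The part of local background in these widths was not tested.

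The largest losses of width outside the stretches began with Onecut1 and AI593442. Onecut1, a transcription factor of liver and neuronal development, covered 1907, 1672 and 2439 bp in WT and 305, 711 and 620 bp in KO (−1.95 ± 0.31, adjusted p = 0.00945, limma). Its summit reads overlapped fully, at 23, 20 and 19 in WT and 19, 20 and 23 in KO (−0.12 ± 0.20, adjusted p = 0.843), while local background was 0.96 higher on the log2 scale in KO, and its width did not pass where calls were joined only by overlap (adjusted p = 0.0662). AI593442 went from 1655, 1250 and 1704 to 413, 519 and 443 bp (−1.74, adjusted p = 0.0038), with local background 1.50 higher and overlapping summit reads of 17 to 24 in WT and 22 to 31 in KO, and this call too was lost where calls were joined only by overlap (adjusted p = 0.214). Gdnf, a neurotrophic factor, went from 777, 982 and 1146 to 411, 307 and 242 bp (−1.61 ± 0.26, adjusted p = 0.0107), with local background 1.16 higher. At both AI593442 and Gdnf the WT local background (1.35, 1.43 and 1.43) stood at the genome-wide floor of each library, so these differences compare that floor with KO values. Tlx2, a homeobox gene of the enteric nervous system, went from 2388, 2608 and 2960 to 596, 1066 and 1097 bp (−1.58 ± 0.22, adjusted p = 0.00753), with local background 0.61 higher. Cald1, which codes for the actin-binding protein caldesmon, went from 665, 806 and 1248 to 248, 392 and 274 bp (−1.55, adjusted p = 0.0195), with a higher local background (adjusted p = 0.00183), a call lost without WT2 or KO3 (adjusted p = 0.0537 and 0.0686). Erbb4, a receptor tyrosine kinase (−1.51), and Pax8, a paired-box factor (−1.29), were narrower at a local background that differed by 0.12 and −0.14. Nkx2-1, Cacnb2 and Ajm1 were also narrower (−1.47, −1.37 and −1.28), but each of the 3 calls was lost in 5 of 6 fits that left out a library. Onecut1 is shown for its CpG-rich promoter (RefSeq, GRCm38.p6, chr9:74861671-74861920, plus strand), with 31 CG dinucleotides, in capitals, in 250 bases.
Onecut1 promoter: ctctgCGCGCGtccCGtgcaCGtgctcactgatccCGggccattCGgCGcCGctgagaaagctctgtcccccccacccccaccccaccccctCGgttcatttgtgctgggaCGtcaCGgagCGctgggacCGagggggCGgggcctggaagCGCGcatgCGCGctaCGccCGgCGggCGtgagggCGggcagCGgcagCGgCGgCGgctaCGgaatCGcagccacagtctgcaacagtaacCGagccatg

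Lists of lineage genes were read against the same shares of all promoter regions, 6.30% wider and 0.964% narrower. Of 14 formative and primed epiblast regions 1 was wider (Dnmt3a) and 1 narrower (Cdh2), with a median of −0.22, and the Dnmt3a and Cdh2 calls each held in 1 of 6 fits that left out a library. Of 10 mesendoderm regions 1 was narrower, Wnt3, which went from 1140, 1176 and 1269 to 632, 762 and 844 bp (−0.69 ± 0.16, adjusted p = 0.0359, limma), a call that did not hold when any library was left out. Of 10 neural regions 1 was wider and 1 narrower. The wider was that of Sox1, an early neural SOX factor (0.42 ± 0.09, adjusted p = 0.026), and that call held in 1 of 6 fits that left out a library. Of 9 primitive endoderm regions 1 was wider, that of the laminin gene Lamb1 (0.55, adjusted p = 0.0255), a call that held in 1 of 6 fits that left out a library, with adjusted p up to 0.0853. Of 5 trophectoderm and 11 Hox regions 0 passed. Of 16 germline genes on these chromosomes, 1 had a region called in all 6 libraries, Stag3, whose promoter is shared with Gpc2 and was wider (1.56 ± 0.20, adjusted p = 0.00596), but not where calls were joined only by overlap (adjusted p = 0.955). None of the 11 two-cell stage genes on these chromosomes had a call in any library.

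In the NF-κB system itself, 13 promoter regions were tested, those of subunits, IκB proteins and the regulators Ikbkb, Chuk and Tnfaip3. Nfkbia was the only 1 of the 13 that passed in summit reads. In width 2 were wider and 0 narrower. Over all promoter regions 3.17% were higher and 1.76% lower in summit reads, and 6.30% were wider and 0.964% narrower. Relb, a subunit of the non-canonical arm, went from 807, 501 and 714 to 1068, 1407 and 1599 bp (1.02 ± 0.23, adjusted p = 0.0306, limma), and Bcl3, an atypical IκB protein, from 992, 814 and 836 to 1323, 1779 and 1553 bp (0.81 ± 0.15, adjusted p = 0.0178). The Relb call held in 2 and the Bcl3 call in 3 of 6 fits that left out a library, with adjusted p up to 0.113 and 0.0736. Nfkb1, Nfkb2, Rela, Rel and Nfkbie had log2 width differences between −0.08 and 0.14, and 0 of these 5 passed in width. In fold enrichment 1 of the 13 was higher, Rela (0.99, adjusted p = 0.00438, limma), and 1 lower, Nfkbia. Over all regions tested 10.1% were higher and 10.3% lower. Summit reads at Rela differed by −0.14 (adjusted p = 0.690, limma). Of 16 NF-κB target genes, Cxcl10, Ccl2, Ccl5, Vcam1, Il6 and Tnf had no call in any library. Of the 8 regions tested only that of Relb passed in width, against 6.30% wider over all promoter regions.

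Wider and narrower promoters differed in the other marks and in sequence. Of the 712 wider promoters, 99.3% ± 0.162 overlapped H3K27ac, the mark of active promoters and enhancers, in WT libraries, and 12.5% ± 0.405 overlapped H3K27me3. Of the 109 narrower promoters, 74.9% ± 2.80 overlapped H3K27ac and 83.8% ± 1.06 overlapped H3K27me3. Over all 11309 promoter regions the shares were 90.4% and 41.3%. In KO libraries the overlap of narrower promoters with H3K27ac was lower, at 63.0% ± 1.40 (exact permutation p = 0.1), and 66.7% against 73.3% in WT outside the stretches. Over all promoter regions it was lower as well, at 87.4% in KO against 90.4% in WT (exact permutation p = 0.1). Overlap of the narrower promoters with H3K27me3 was 83.5% ± 0.917 in KO. Wider regions were also poorer in GC, with a median of 52.7% and a ratio of observed to expected CpG of 0.565, against 61.7% and 0.666 for narrower regions and 58.0% and 0.677 for all. These values were read over the whole joined region, which grows with the calls it joins. In the 300 bases of RefSeq promoters the median was 22 CpG in all 3 groups, so the contrast between the Nanog and Onecut1 promoters is not that of their groups.

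Fold enrichment varied more closely with local background than with summit reads. With each library centred on its median, 20.5% of regions passed the test, 10.1% as higher and 10.3% as lower (10.2% and 10.3% without the stretches), and among promoter regions 1227 were higher and 1212 lower in KO. Without centring 1302 were higher and 697 lower. The median fold enrichment per library was 7.34 ± 0.380 in WT and 6.80 ± 0.269 in KO (exact permutation p = 0.2), and for promoter peaks alone 8.19 ± 0.581 and 8.20 ± 0.0431. Across promoter regions the log2 difference in fold enrichment had an SD of 0.462, that in local background 0.604 and that in summit reads 0.238. The difference in fold enrichment had a Pearson's r of −0.863 with that in local background and of 0.360 with that in summit reads over the 11309 regions, which share libraries and, within a genotype, the input. Fold enrichment is by definition a ratio of summit reads to local background, and both were solved from it. These correlations are therefore in part built in, and they describe how the ratio splits. Promoters with higher fold enrichment had a median log2 difference of −0.80 in local background and 0.09 in summit reads, and those with lower fold enrichment 1.00 and −0.11.

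Pigh and Pgd, from the 6 largest gains and the 6 largest losses, are examples. At Pigh, a gene of GPI-anchor synthesis, fold enrichment was 5.71, 3.54 and 4.17 in WT and 17.8, 15.9 and 16.8 in KO (1.86 ± 0.21, adjusted p = 1.12e-04, limma), with a local background difference of −1.85 and 33, 33 and 42 summit reads in WT against 53, 46 and 48 in KO. At Pgd, an enzyme of the pentose phosphate pathway, it was 18.6, 16.5 and 21.8 in WT and 6.56, 7.67 and 6.13 in KO (−1.56 ± 0.18, adjusted p = 1.12e-04), with local background 2.10 higher and overlapping summit reads of 54 to 69 in WT and 60 to 74 in KO. Of 3672 promoter regions whose local background differed by at most 0.25 on the log2 scale, 1 passed the fold enrichment test, as lower, against 302 at an unadjusted p under 0.05, and 201 were wider and 29 narrower in the width test. This restriction nearly fixes the denominator of fold enrichment, so the low count in that test follows in part from the definition. Because each genotype had 1 input, a difference between the inputs and a difference between the genotypes cannot be told apart in local background, where 39.7% of regions passed, or in fold enrichment. The local background values of the clones of a genotype come from the same input, so that test does not measure a spread between clones. Fold enrichment, which divides by local background, shares this limit. Peaks were called against the same input, so called widths and peak numbers are not free of it either. The width and local background differences had a Pearson's r of −0.139 over the 11309 promoter regions. The part of the input in the widths was not tested.

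**Figure D3:**
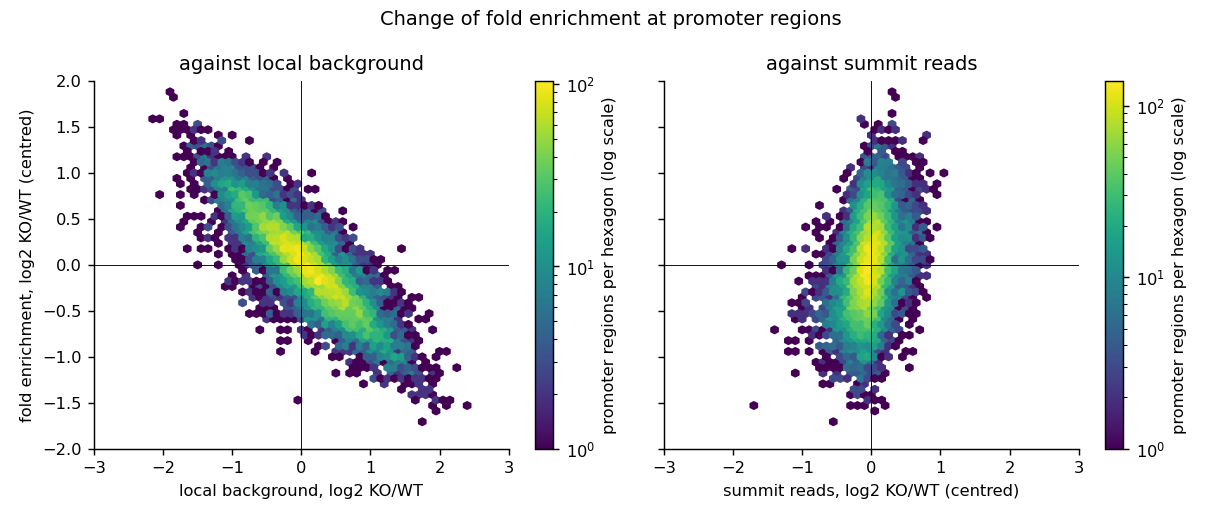
Log2 difference (KO over WT) in fold enrichment against that in local background and in summit reads over promoter regions called in all 6 H3K4me3 libraries. Fold enrichment falls as local background rises, with r of −0.863, and has a looser relation with summit reads, with r of 0.360. As fold enrichment is a ratio of summit reads to local background, these relations are in part built in.

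Summit reads, which leave the input out, changed mostly on the 3 stretches. This test was added after the data had been seen. Of all regions 5.19% passed, 3.30% as higher and 1.89% as lower. Of promoter regions 358 were higher and 199 lower (360 and 89 when libraries were scaled by ChIP reads, 205 and 218 without the mean-variance trend), and 324 of the higher and 66 of the lower lay in the stretches. On the chromosome 8 stretch 490 of 506 promoter regions were above 0, with a median of 0.48, and 323 passed as higher. On the chromosome 12 stretch 72 of 72 were below 0, with a median of −0.85, and 66 passed as lower. On the chromosome 2 stretch 31 of 38 were above 0 with a median of 0.22, and 1 passed. Over the other 10693 promoter regions the median was −0.03. Width moved the same way there, with medians of 0.27, 0.26 and −0.45 on chromosomes 2, 8 and 12 and 0.10 elsewhere, and so did local background, with 0.42, 0.60, −0.58 and 0.07. The number of copies of these stretches was not measured here. Refitted without them, the summit read test gave 9 higher and 20 lower promoters, against 1137 at an unadjusted p under 0.05, and 0.410% of regions passed, 0.193% as higher and 0.217% as lower.

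**Figure D4:**
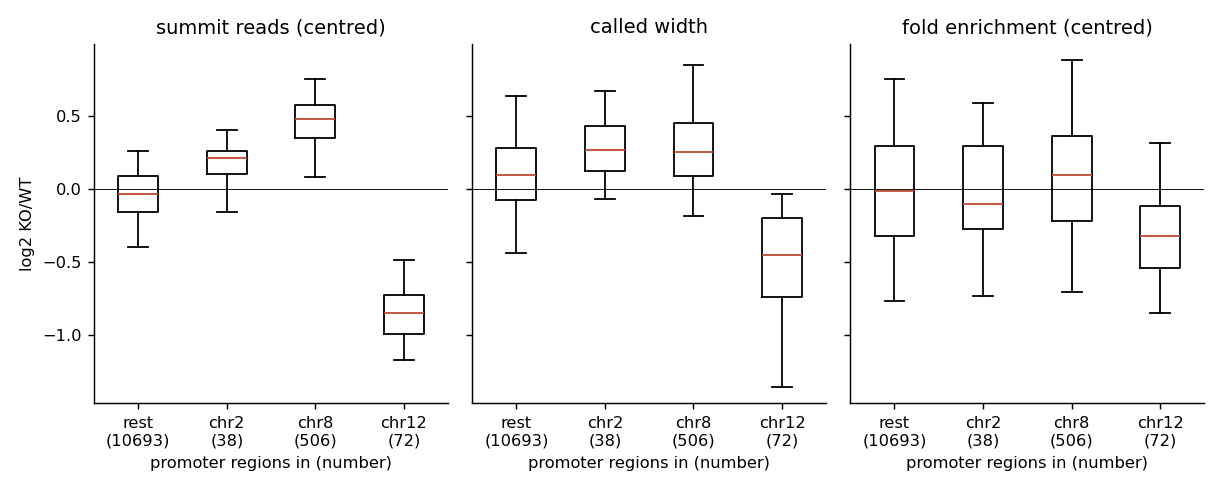
Log2 difference (KO over WT) in summit reads, called width and fold enrichment over promoter regions of the 3 stretches and of the rest of chromosomes 1 to 19, as boxes from the lower to the upper quartile with the median as a line and whiskers from the 5th to the 95th percentile. Summit reads of the chromosome 8 stretch lie above 0 with a median of 0.48 and those of the chromosome 12 stretch below 0 with a median of −0.85.

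Outside the stretches 34 promoters were higher and 133 lower in summit reads in the fit over all regions, which centres each library on its median. With libraries scaled by ChIP reads instead, 40 were higher and 30 lower there, so the direction of this split depended on the scaling. After Nfkbia came Ch25h, a cholesterol hydroxylase induced in inflammation, with 27, 20 and 26 reads in WT and 11, 12 and 15 in KO (−1.06 ± 0.21, adjusted p = 2.59e-04, limma). Itgb8, an integrin that activates TGF-β (−0.94, adjusted p = 0.00265), lies at chr12:119237744-119238969, just past the chromosome 12 stretch, and its call was lost without WT2 (adjusted p = 0.0576). Btbd7 (−0.90, adjusted p = 2.66e-05) lies at chr12:102876909-102878928, just before it. Col25a1, a transmembrane collagen (−0.93, adjusted p = 0.00117), and Areg, the EGF receptor ligand amphiregulin (−0.87, adjusted p = 0.00399), followed. Hoxd1 had 47, 37 and 54 reads in WT and 32, 32 and 31 in KO (−0.64 ± 0.15, adjusted p = 0.00345). The call at Hoxd1 did not hold without WT1 (adjusted p = 0.0618).

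The largest gains in summit reads outside the stretches were at Nap1l5, Pcolce, Zrsr1, Tbx3, Vangl1 and Ryr1. Pcolce, an enhancer of procollagen processing, had 12, 18 and 21 reads in WT and 30, 41 and 32 in KO (0.92, adjusted p = 7.45e-04, limma). Vangl1, a planar cell polarity gene, and Ryr1, a calcium release channel gene, were higher by 0.77 and 0.76 (adjusted p = 0.00416 and 0.0172). Nap1l5 and Zrsr1 are imprinted. Imprinted genes are expressed from a single parental allele, and the silent allele of their control regions carries DNA methylation and H3K9me3. Of 24 imprinted regions tested, 4 were higher and 0 lower in summit reads, and 6 were wider and 0 narrower, with 1 narrower after centring. Over all promoter regions outside the stretches 0.318% were higher in summit reads, and over all promoter regions 3.17% were higher and 6.30% wider. Without the stretches in the fit 2 of the 24 were higher, Zrsr1 and Nap1l5. Zrsr1, expressed from the paternal allele, had 27, 27 and 30 reads in WT and 55, 52 and 53 in KO (0.81 ± 0.15, adjusted p = 1.03e-04, limma). Nap1l5 had 10, 10 and 12 reads in WT and 20, 22 and 24 in KO (0.93 ± 0.21, adjusted p = 0.00208). Snrpn/Snurf had 22, 24 and 26 in WT and 34, 40 and 41 in KO (0.55 ± 0.17, adjusted p = 0.0347), and Mcts2 had 21, 21 and 24 in WT and 35, 29 and 43 in KO (0.56 ± 0.18, adjusted p = 0.0451). In none of the 4 did the genotypes overlap. The Mcts2 call was lost in 5 of 6 fits that left out a library, the highest adjusted p being 0.319 without KO3, and held in width, where 911, 542 and 888 bp in WT became 1927, 2135 and 1905 bp in KO (1.39 ± 0.20, adjusted p = 0.008). The promoters of Zrsr1 (RefSeq, GRCm38.p6, chr11:22971755-22972004, plus strand) and Mcts2 (chr2:152686898-152687147, plus strand), both inside the changed regions, hold 8 and 20 CG dinucleotides, in capitals, in the 250 bases shown.
Zrsr1 promoter: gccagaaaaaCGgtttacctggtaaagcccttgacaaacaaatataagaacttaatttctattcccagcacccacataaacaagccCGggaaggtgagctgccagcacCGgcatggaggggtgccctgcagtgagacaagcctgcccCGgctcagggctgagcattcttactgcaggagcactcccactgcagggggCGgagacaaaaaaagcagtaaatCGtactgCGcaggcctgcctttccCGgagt
Mcts2 promoter: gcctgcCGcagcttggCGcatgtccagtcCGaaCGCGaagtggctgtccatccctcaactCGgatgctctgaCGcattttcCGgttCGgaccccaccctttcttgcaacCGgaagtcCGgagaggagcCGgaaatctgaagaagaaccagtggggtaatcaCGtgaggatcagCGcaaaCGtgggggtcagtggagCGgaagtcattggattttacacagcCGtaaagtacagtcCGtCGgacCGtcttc

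The H3K9me3 calls of the same genotypes were then laid over these promoters. Of 34 imprinted promoter regions with any H3K4me3 call, 16, 16 and 16 overlapped H3K9me3 in the WT libraries and 3, 3 and 2 in the KO libraries. In 13 of the 34 the overlap was present in 3 of 3 WT and 0 of 3 KO libraries, and in 0 the reverse, while over all 13395 promoter regions the shares were 0.276% and 0.127%. Of these 13, 9 were called for H3K4me3 in all 6 libraries: Mcts2, Gnas, Peg10/Sgce, Nap1l5, Peg3/Usp29, Snrpn/Snurf, Inpp5f, Zrsr1 and Impact. In all 9 the summit reads of the genotypes did not overlap and KO was higher, with log2 differences of 0.27 to 0.93 and a median of 0.49, and 4 of the 9 passed. The genotypes did not overlap, in either direction, in 1853 of 11309 promoter regions (16.4%), in 4 of 21 promoters of other genes with the same loss of H3K9me3 calls and in 1 of the other 15 imprinted regions. All 9 also had log2 width differences above 0, with a median of 0.73, and 5 passed. The other 15 imprinted regions had a median of −0.21 in summit reads, with 3 of 15 above 0. At the 21 promoters of other genes the median was −0.12, with 6 of 21 above 0. This set of 9 was picked after its values were seen and is given as a description.

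**Figure D5:**
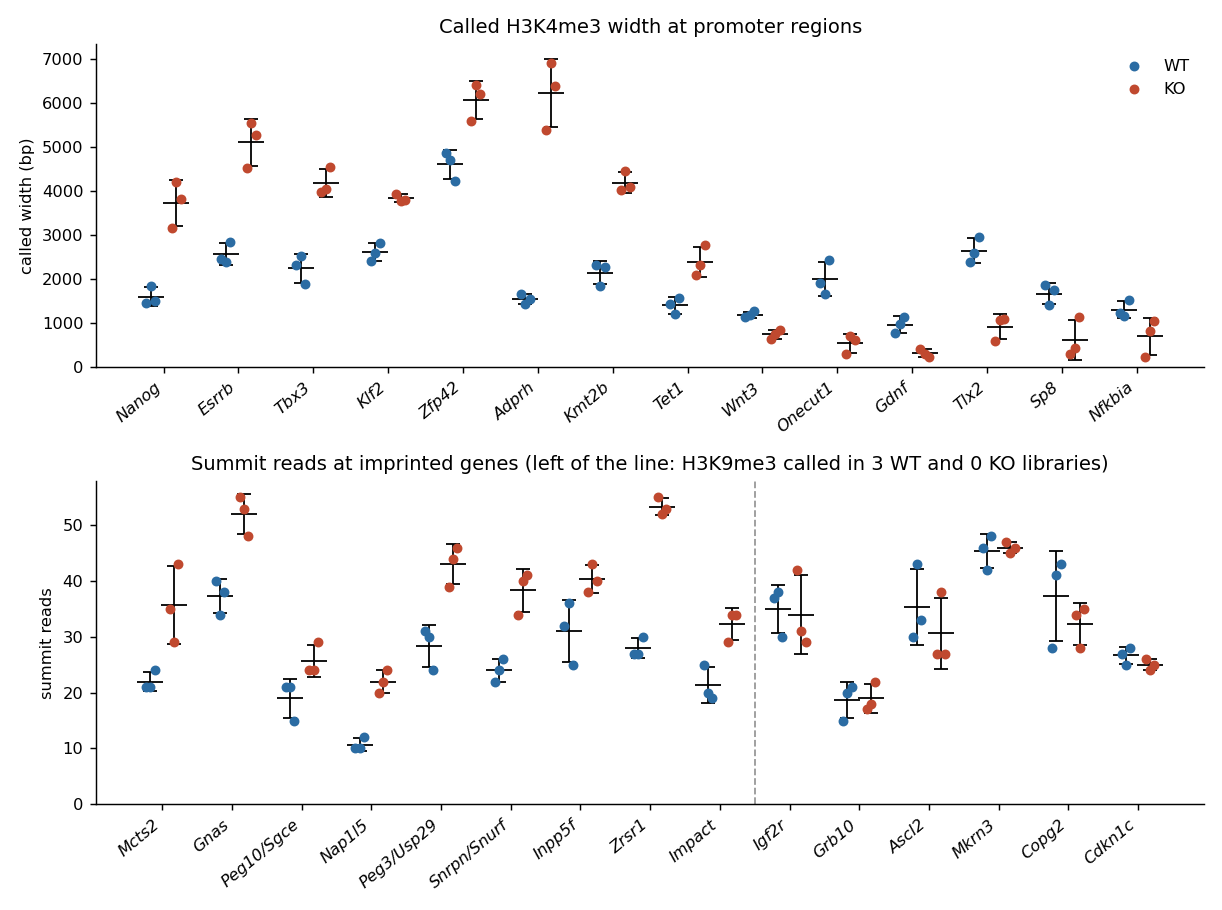
Called width of pluripotency and developmental promoters and summit reads of the imprinted promoters that lost H3K9me3 calls, with 1 point for each of the 3 WT (blue) and 3 KO (red) H3K4me3 libraries, black bars for mean ± SD, and 6 other imprinted promoters to the right of the dashed line. KO points lie above all WT points at Nanog, Esrrb and Tbx3 and at the 9 imprinted promoters, and below them at Onecut1 and Tlx2.

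Some promoters were called in a single genotype and had no ratio to test. Of 23757 joined regions, 2.90% were called in 3 of 3 KO and 0 of 3 WT libraries and 0.716% in the reverse. Among promoter regions 91 were called in KO alone and 60 in WT alone, 85 and 59 outside the stretches. The direction depended on which peaks entered, since 121 KO-only and 123 WT-only promoters were found among peaks of at least 5-fold enrichment, and 62 and 117 with equal numbers of top peaks per library. The largest KO region lay over a Mest promoter, chr6:30736887-30739574, with 2056, 2648 and 2273 bp and 31, 45 and 45 summit reads. Mest is imprinted, and this promoter was also among the 13 that overlapped H3K9me3 in 3 WT and 0 KO libraries. Ccdc84 followed, with 1045, 1668 and 2577 bp and 14, 19 and 22 summit reads. A region upstream of Sall4 (832, 1907 and 2234 bp) and 1 at 1700018B08Rik (1266, 1268 and 1240 bp) lay in the chromosome 2 and 8 stretches. The largest WT regions lay at Rxfp3, a relaxin-family receptor, with 1237, 525 and 1511 bp, and at Grm3, a glutamate receptor, with 801, 899 and 1307 bp. Gm266, on the chromosome 12 stretch, came next, with 748, 1069 and 1114 bp. Summit reads were low in these regions, with medians of 16.0 in KO-only and 15.3 in WT-only promoters against 38.7 in WT and 42.0 in KO over promoters called in all 6 libraries, so that a missing call says only that the caller's threshold was not reached. The WT-only promoters overlapped H3K27me3 in 83.3% ± 2.89 of cases in WT, and the KO-only promoters in 28.6% ± 1.10.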

How the data were processed

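H3K4me3 was profiled by ChIP-seq, sequenced as 50 bp single-end reads, in 3 IκBα-WT and 3 IκBα-KO clones. Per the study's methods, the authors trimmed reads with Trim Galore 0.6.6, aligned them to GRCm38 with Bowtie2 2.4.4, removed reads with a mapping quality under 20 and multimapped reads, marked duplicates with SAMtools 1.15, removed blacklisted regions and called peaks in each library with MACS2 2.2.7.1 against 1 input per genotype at an FDR under 0.05. The deposited lists give the fold enrichment ratio at the summit, −log10 of the p-value and of the q-value, and an integer score, which was not used. Lists of H3K27ac, H3K4me1, H3K27me3 and H3K9me3, deposited by the authors with a ChIP read count per region called by epic2, were used for overlap by at least 1 bp only, not for a test of their counts. The study's own differential test needs read counts per region that the H3K4me3 lists do not give.

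Summit reads and local background were solved from fold enrichment and −log10 p. The recovered depth was 13.9 to 15.0 M reads per library, and summits of 23 to 28 reads set the precision of single regions. Calls were joined over gaps of up to 500 bp, and the log2 of bp covered, of the highest fold enrichment and of summit reads (the last 2 centred on the library median over regions called in all 6 libraries) were tested with limma 3.58.1 in R 4.3.3 with a mean-variance trend and Benjamini-Hochberg adjustment over 13217 regions at a threshold of 0.05. Widths were not centred. Library values were compared by two-sided exact permutation tests over the 20 assignments of 3 of 6 libraries. Replicates were independent clones, so replicate numbers were not used as a block. The fits were tested on simulated data. Gene starts came from the GENCODE annotation of GRCm38 and sequences from RefSeq (GRCm38.p6) and the study's guide list.

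The members, the gene lists and the stretches were chosen with earlier results of these data known. Named were Nfkbia; the 10 largest width gains and losses and the 6 largest fold enrichment gains and losses among promoters that passed, did not overlap and lay outside the stretches; the 4 widest promoters called in WT only and in KO only; up to 4 genes that passed from each list, or 2 with the smallest p; Tbx3, Gbx2, Zfp42 and Klf2; and the largest change of each stretch. The summit read fit, its 6 largest gains and losses and the restriction to a like local background were added after the data were seen, and other named genes, among them Snrpn, the genes with long peaks and the promoters that lost H3K9me3, were chosen after their values were seen. The X chromosome was not analysed here. A few promoters that met the naming rule are not reported here. Alternatives covered the peak threshold, equal numbers of peaks, promoter definition, joining, centring, trend, filters, the stretches and each library.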

Additional observations from a re-analysis of the deposited data

How the results depend on the processing

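Of 138 alternatives for the 12 comparisons between the genotypes, 117 were counted as the same, 17 moved the value and 4 reversed it. For values per library, the same meant only the same direction, whatever the size. The summit distance difference of 51.0 bp, which became 8.67 bp with at least 5-fold enrichment, was thus counted as the same. The median width difference of −30.0 bp became 45.3 bp with peaks of at least 5-fold enrichment and 54.0 bp with equal numbers of top peaks, and the median fold enrichment difference of −0.540 became 0.155 and 0.223. The 821 promoters that passed in width became 412 without the mean-variance trend, 462 by outer span, 390 with peaks of at least 5-fold enrichment, 230 where local background differed by at most 0.25 (a smaller set of regions), and 287 to 682 with 1 library left out. For fold enrichment, 2439 became 1 with local background within 0.25, a limit that nearly fixes the denominator of the ratio. For summit reads, 557 became 29 without the stretches and 104 with local background within 0.25. The 151 promoters called in 1 genotype became 284 when joined by overlap only, 244 with peaks of at least 5-fold enrichment, 232 with the study's promoter window, and 213 to 247 with 1 library left out. The cause was not tested. Of 4316 alternatives for 282 values of named promoters, 290 lost a call, 28 gained a call and 0 reversed a called value. Of the named calls, 29 of 54 in width, 30 of 51 in fold enrichment and 10 of 18 in summit reads held with each library left out. Clones with the same replicate number did not deviate together, with correlations of −0.0356 to 0.0114 over 11309 promoter regions, and at most 2 of 6 libraries correlated best with their own number. With the replicate number as a block, 680 promoters passed in width, 2500 in fold enrichment and 444 in summit reads. Depth of 13.9 to 15.0 M reads and 1 input per genotype limit all values of single promoters.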

Other observations

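Away from promoters, 597 regions were called in 3 of 3 KO and 0 of 3 WT libraries and 110 in the reverse, with medians of 15.7 and 15.3 summit reads. The widest KO-only regions lay 31430 bp from the start of Col18a1 (1816, 2790 and 2503 bp), inside Ccnd3, which codes for a D-type cyclin (1702, 2259 and 2504 bp), and inside Ubxn11 (1764, 1835 and 1867 bp). All 3 overlapped H3K27ac and H3K4me1, marks of active and primed enhancers, in 6 of 6 libraries of those marks and H3K27me3 in 0 of 6. Most regions away from promoters overlapped the first 2 marks. Of the 1908 such regions called in all 6 libraries, 87.2% overlapped H3K27ac, 98.3% H3K4me1 and 54.4% H3K27me3 in WT. In KO the shares were 84.0%, 98.2% and 55.2%. Of the 597 regions, 94.3% ± 0.604 overlapped H3K27ac in WT and 95.5% ± 0.0967 in KO, so the H3K27ac calls were already there in WT, and 13.9% and 11.9% overlapped H3K27me3. The widest WT-only regions lay in Elavl2, a neuronal RNA-binding protein gene, in the Hoxc5/Hoxc6 locus and in Gria2, a glutamate receptor gene, each under H3K27me3 in 6 of 6 libraries. Of the 110 WT-only regions, 77.6% overlapped H3K27me3 in either genotype. The ratio of observed to expected CpG had a median of 0.324 in KO-only and 0.551 in WT-only regions, against 0.589 in regions away from promoters called in all 6 libraries.

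Counted in each library's own calls, 51.9% ± 2.46 of WT and 35.2% ± 1.68 of KO gene body H3K4me3 peaks overlapped H3K27me3 (exact permutation p = 0.1), and 39.8% and 26.2% of intergenic peaks did (exact permutation p = 0.1). Overlap of gene body peaks with H3K27ac was 84.0% ± 1.08 in WT and 88.2% ± 0.220 in KO (exact permutation p = 0.1). The numbers behind these shares differed in another way. Gene body peaks with H3K27me3 numbered 1559, 1462 and 1614 in WT and 1324, 1572 and 1575 in KO (exact permutation p = 0.7), while those without it numbered 1471, 1215 and 1629 in WT and 2257, 2904 and 3111 in KO (exact permutation p = 0.1). Intergenic peaks with H3K27me3 numbered 437 ± 85.9 in WT and 432 ± 83.2 in KO (exact permutation p = 1), and those without it 660 ± 117 and 1220 ± 230 (exact permutation p = 0.1, SD, n = 3).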
